A study of Mus musculus with 6 samples.

Results

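The genes followed here are 35 genes of glucose uptake, glycolysis, pyruvate oxidation and glycogen turnover, read in RNA from cardiomyocyte nuclei of the left ventricle. They were chosen by name, and each was looked up by its symbol among the 54232 genes of the table of normalised read counts. Of the 36 entries found, 35 were tested, 1 for each gene, and a second entry named Aldoa (ENSMUSG00000114515) held too few reads to be tested, with between 3.24 and 12.5 normalised read counts per library. The mice were adults whose Y chromosome came from 129P2 on a C57BL/6 background. UtyGT mice carried UtyGt(XS0378)Wtsi, a gene trap in intron 4 of Uty made in the E14Tg2a.4 ES cell line of 129P2/OlaHsd and bred onto C57BL/6J. WT mice were C57BL/6.Y<129P2>, so that both groups shared the foreign Y chromosome and differed by the trap. There were 3 libraries per group, each from 150000 nuclei sorted by an antibody to PCM1, which marks the rim of cardiomyocyte nuclei. Each group had 1 library with each of the numbers 11, 15 and 31.

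Cardiac muscle takes up glucose through GLUT4, which insulin and contraction bring to the cell surface, and through GLUT1, which sits there at rest. Hexokinase traps glucose as glucose 6-phosphate, which either enters glycolysis, where phosphofructokinase is the committed step, or is stored as glycogen. Pyruvate leaves glycolysis as lactate or is oxidised in mitochondria by the pyruvate dehydrogenase complex, which kinases switch off and phosphatases switch on. The adult heart draws most of its energy from fatty acids, and it holds back glucose oxidation mainly at pyruvate dehydrogenase.

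The libraries held between 18204752 and 23252887 gene reads, of which the 35 genes took between 0.496% and 0.576%. A normalised read count is a gene's read count divided by the size factor of its library. Uty itself, which checks the labels, had 1286 ± 65.1 normalised read counts in WT and 18.7 ± 4.13 in UtyGT (mean ± SD, n = 3, log2 fold change -6.05, limma adjusted p = 0.000113). Ddx3y, the neighbour of Uty, had 1229 ± 97.2 in WT and 192 ± 91.1 in UtyGT (log2 fold change -2.82, limma adjusted p = 0.9996). Each UtyGT library lay below each WT library for Ddx3y, yet limma did not call it. A gene left uncalled by this test may therefore still differ. The labels put the preparations of each strain on separate days, and a deposited table of numbers 11 and 31 is named for a day effect. Which number belongs to which day and the count of animals per library are not given in the sources used here, so that the p-values cover no more than the library-to-library spread, part of which may be technical. The sum of 8 cardiomyocyte markers lay between 782542 and 942180 normalised read counts per library. The sum of 8 leukocyte markers, cells that the sort was meant to remove, was 1886 and 809 in the WT and UtyGT libraries of number 15 and between 9635 and 24063 in the other 4. All 8 leukocyte markers were lower in both number 15 libraries, and 0 of 8 were at 0 in all libraries. In such bulk samples, fewer cells of a type and less RNA per cell cannot be told apart.

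Across the pathway, no gene of glucose use was called between UtyGT and WT, and for most of the 35 genes the interval left room only for a small difference. With limma across all 16202 genes tested, 0 of the 35 genes passed the adjusted p threshold of 0.05, where 0.00617% of all genes did. The unadjusted p was under 0.05 for 0 of the 35 genes with limma, edgeR and DESeq2 alike, and those tools also called 0 of them. Over all 16202 genes tested it was under 0.05 for 195 with limma, 195 with edgeR and 114 with DESeq2. With the number as a block, the unadjusted limma p was under 0.05 for 1 of the 35, Pfkfb3, against 399 of all genes tested. For 0 of the 35 were the 3 libraries of a group all above those of the other, against 5.42% of all genes tested. The median log2 fold change, UtyGT over WT, was 0.04 over the 35 genes and -0.01 over all genes tested, with single genes between -0.67 for Pfkfb3 and 0.20 for Slc2a4. The 95% interval of the fold change lay within 1.5-fold either way for 32 of the 35 genes (91.4%), against 54.3% of all genes tested and 90.3% of the 6642 genes whose mean was 300 or more. The 3 exceptions were Pfkfb3, Txnip and Pdp1.

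**Figure D1:**
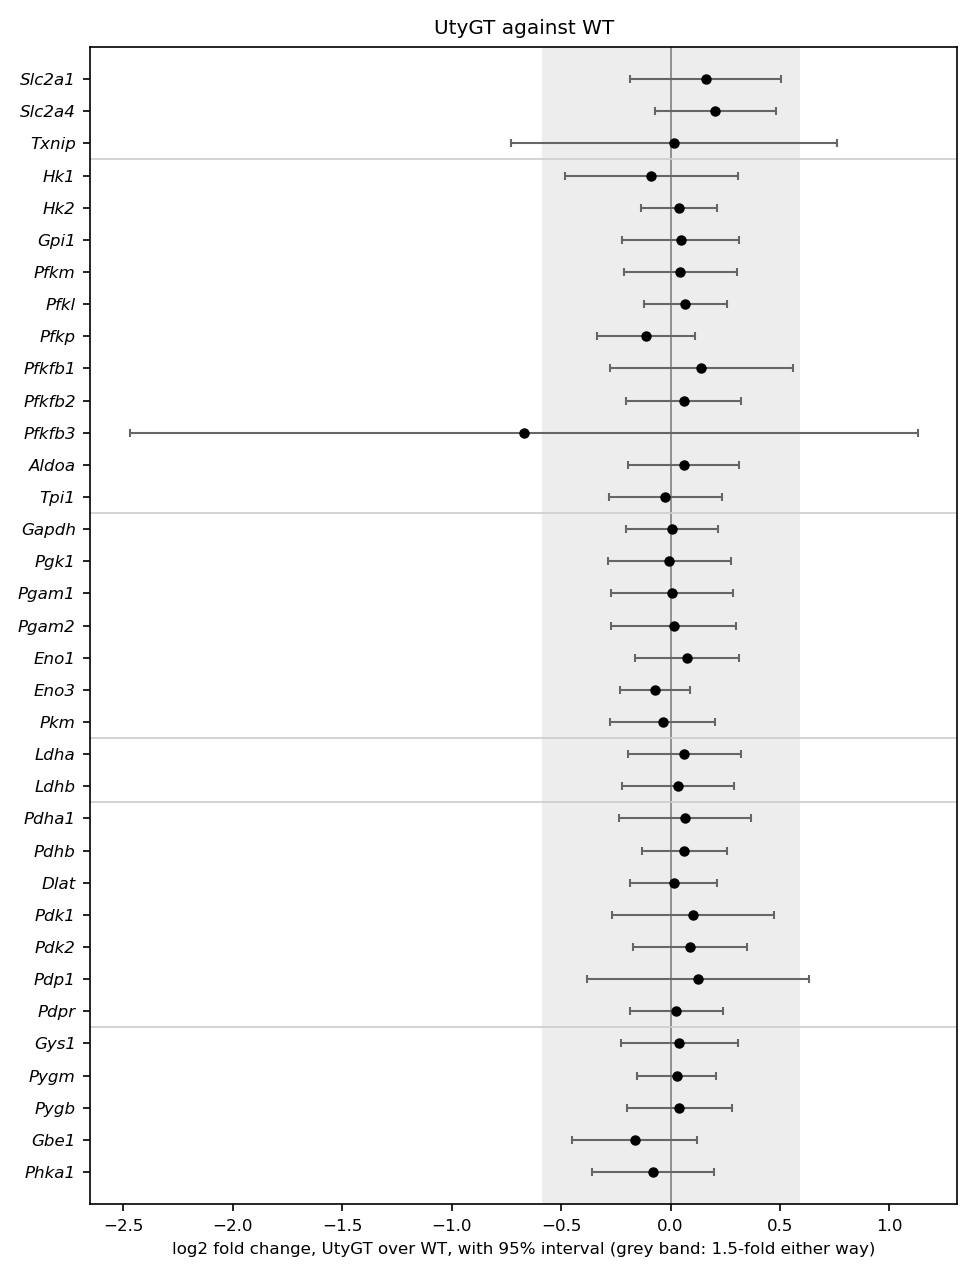
Log2 fold change of each gene, UtyGT over WT (x axis), with the 95% interval from limma (n = 3 libraries per group) and genes grouped by role (y axis). Of the 35 intervals, 32 lie inside the grey band of 1.5-fold either way, and Pfkfb3 has the widest, from -2.47 to 1.13.

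By role, the log2 fold change was above 0 for 3 of 3 genes of glucose uptake, 7 of 11 of upper glycolysis, 4 of 7 of lower glycolysis, 2 of 2 of lactate formation, 7 of 7 of the pyruvate dehydrogenase system and 3 of 5 of glycogen turnover. In all, 26 of the 35 genes (74.3%) lay above 0, against 48.6% of all genes tested and 54.8% of those whose mean was 300 or more. This lean to one side rested on single WT libraries. Without WT 11 the median became -0.01 with 16 of 35 genes above 0, and without WT 31 it became -0.00 with 17 of 35 above 0. Taken within a number, UtyGT over WT gave a median log2 ratio of 0.04 in 11, -0.07 in 15 and 0.07 in 31. In 3 of 3 libraries of equal number, UtyGT was higher for Slc2a4 and Pdhb and lower for Pfkfb3 and Eno3. The other genes of the 35 were mixed, and the share of all genes tested with such agreement was not counted.

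**Figure D2:**
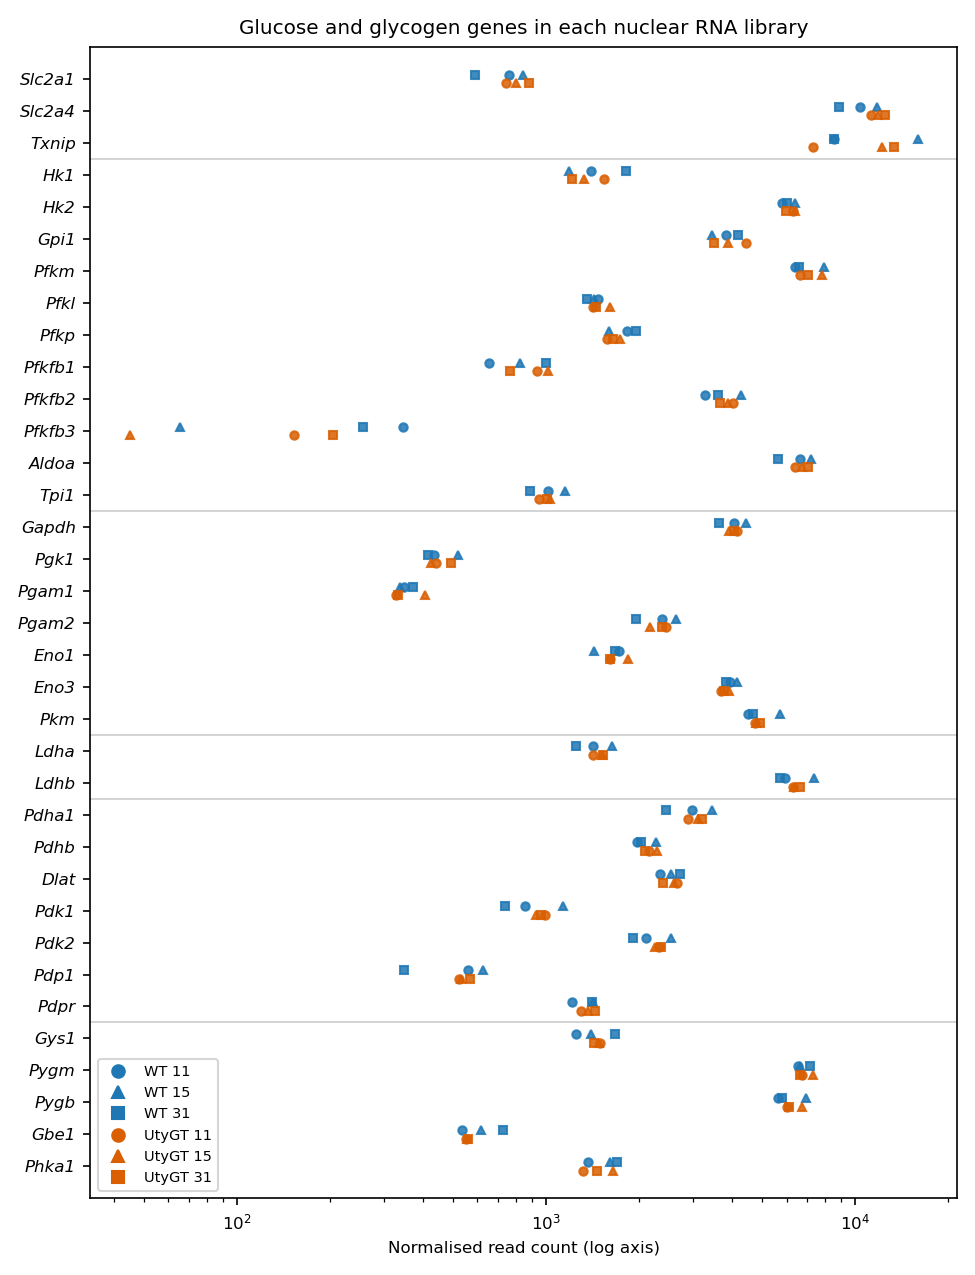
Normalised read count (x axis, log scale) of each gene in each of the 6 libraries, with genes grouped by role (y axis), colour for the group and marker shape for the library number. WT and UtyGT points overlap for all 35 genes, and Pfkfb3 spreads the most, 7.67-fold between its lowest and highest library.

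Among the transporters, Slc2a4, which encodes GLUT4, stood at 10362, 11807 and 8859 normalised read counts in WT 11, 15 and 31 and at 11229, 11828 and 12475 in UtyGT 11, 15 and 31, and the same order of libraries is kept below. WT 11 and WT 31 lay below all 3 UtyGT libraries, and WT 15 lay among them. The log2 fold change was 0.20 (SE 0.12), with an unadjusted p of 0.12, the smallest of the 35 genes. Without WT 31, it was 0.10. Slc2a1, which encodes GLUT1, had 758, 840.4 and 588 in WT and 744, 798 and 879 in UtyGT, and its groups overlapped with WT 31 lowest and UtyGT 31 highest. Its log2 fold change was 0.16 (SE 0.15), and the 95% interval ran from -0.18 to 0.50. Without WT 31, the log2 fold change of Slc2a1 was 0.013. Per kilobase of exon, the mean level over the 6 libraries was 3189.5 for Slc2a4 and 219 for Slc2a1, with Slc2a4 the higher in nuclear RNA of both groups. Transporter protein and glucose uptake were not measured here.

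Txnip encodes an arrestin-like protein that draws glucose transporters back from the cell surface, and the gene is itself induced by glucose through the factors MondoA and ChREBP. It had the second highest level of the 35 genes per kilobase of exon, 3514, after Ldhb. Txnip (GRCm38, chr3:96557957-96561883, plus strand) carries in its promoter the carbohydrate response element through which those factors act, so its RefSeq sequence (GRCm38.p6, chr3:96557707-96557956), the 250 bases before the start site, is shown with that element in capitals.
Txnip promoter: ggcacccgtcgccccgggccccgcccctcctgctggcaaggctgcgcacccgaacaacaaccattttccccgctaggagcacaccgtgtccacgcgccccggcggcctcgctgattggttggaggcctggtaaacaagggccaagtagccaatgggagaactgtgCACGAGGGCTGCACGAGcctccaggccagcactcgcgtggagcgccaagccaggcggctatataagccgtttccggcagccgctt
The search, on both strands, was for CACGNG, any 5 bases and CACGNG again, where N is any base, and the capitals match it between 85 and 69 bases before the start. Of 32817 RefSeq promoters of this length, 15 (0.0457%) held such a match, and among the 33 of the 35 genes with a promoter entry Txnip was the 1 that did. A match describes the letters and not a bound factor.

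Txnip stood at 8516, 15927 and 8522 normalised read counts in WT and 7295, 12252 and 13329 in UtyGT. The libraries with the highest counts were WT 15, UtyGT 31 and UtyGT 15, and the groups overlapped throughout. The log2 fold change of UtyGT over WT was 0.01 (SE 0.31), with a 95% interval from -0.73 to 0.76, among the widest of the 35 genes. Between numbers, its log2 difference for number 15 was 0.83 (SE 0.23) against number 11 and 0.39 (SE 0.23) against number 31, which did not pass with limma (F test, unadjusted p = 0.021, adjusted p = 0.28). DESeq2 called it (adjusted p = 0.028), as did limma without WT 31 (adjusted p = 0.0026) and without UtyGT 31 (adjusted p = 0.0022), but without WT 31 the difference against number 31 changed sign to -0.083. Gm15441, a gene on the other strand whose exons overlap those of Txnip over 606 bases, had 45.0, 121 and 54.0 normalised read counts in WT and 58.9, 95.8 and 113 in UtyGT. Whether the counting used strand is not given in the sources used here, so reads of the 2 genes cannot be told apart there.

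Upper glycolysis runs from hexokinase to the triose phosphates. Hk2, the insulin-responsive muscle hexokinase, varied little, with 5792, 6399 and 6024 in WT and 6314, 6404 and 5982 in UtyGT. Hk1, the hexokinase of most tissues, ranged more widely, with 1394, 1186 and 1814 in WT and 1536, 1333 and 1217 in UtyGT, and WT 31 stood highest. Their log2 fold changes were 0.04 (SE 0.07) for Hk2 and -0.09 (SE 0.17) for Hk1. Gpi1, the isomerase that follows, ranged from 3439.9 to 4426 over the 6 libraries, Aldoa, the muscle aldolase, from 5613 to 7219.9, and Tpi1, triose phosphate isomerase, from 886 to 1150.0. Their log2 fold changes were 0.05 (SE 0.11), 0.06 (SE 0.11) and -0.02 (SE 0.11), and none of these genes passed the test.

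Phosphofructokinase is made of muscle, liver and platelet type subunits. Pfkm, the muscle subunit, had 6388, 7906 and 6596 in WT and 6645, 7833 and 7020.4 in UtyGT, and the number 15 library was the highest in each group. Pfkl, the liver type, had 1477, 1431 and 1360.3 in WT and 1419, 1608 and 1447 in UtyGT. Pfkp, the platelet type, had 1823, 1601 and 1959 in WT and 1574, 1738 and 1654 in UtyGT, with the UtyGT values within the range of WT or just below it. Log2 fold changes were 0.04 (SE 0.11) for Pfkm, 0.07 (SE 0.08) for Pfkl and -0.11 (SE 0.09) for Pfkp, with unadjusted p of 0.7, 0.43 and 0.27. Exons of Pfkp overlap Pitrm1 over 748 bases on the other strand, and neighbours overlap exons of Pfkfb2 over 1416 bases, Pkm over 767, Gpi1 over 741 and Pdha1 over 603.

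The PFKFB enzymes make and break fructose 2,6-bisphosphate, the strongest activator of phosphofructokinase. Pfkfb2, the heart isoform, which kinases downstream of insulin and adrenaline activate, had 3267, 4287 and 3596 in WT and 4029, 3886 and 3646 in UtyGT. Pfkfb1, best known from liver and skeletal muscle, had 656, 826 and 1004 in WT and 938, 1015 and 764 in UtyGT, and its order of libraries within the groups was unlike that of Pfkfb2. Log2 fold changes were 0.06 (SE 0.11) and 0.14 (SE 0.18). The third member, Pfkfb3, an inducible isoform with high kinase activity that is abundant in proliferating and activated immune cells, was the 1 gene that differed between numbers.

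Pfkfb3 had normalised read counts of 346, 65.4 and 256 in WT and 154, 45.1 and 205 in UtyGT, so that both number 15 libraries lay below the other 4. The log2 difference of number 15 was -2.07 (SE 0.26) against number 11 and -2.06 (SE 0.26) against number 31 (limma F test with the group as covariate, adjusted p = 0.0024). It was the only 1 of the 35 genes to pass that test (2.86%), where 4.79% of all genes tested passed. Without WT 15 the adjusted p was 0.055, with log2 differences of -1.96 and -1.95, and in the other 14 alternatives it stayed under 0.05. Pfkfb3 moved with the leukocyte markers, all 8 of which passed the same test with lower values in number 15. Per 1000 counts of the leukocyte sum, Pfkfb3 had 14.4, 34.7 and 14.1 in WT and 15.9, 55.7 and 11.3 in UtyGT, so it fell less than that sum in number 15. The sum of 8 fibroblast markers was 3780, 763 and 1542 in WT and 846, 857 and 2399 in UtyGT, and that of 8 endothelial markers was 1785, 908 and 829.8 in WT and 1004, 1064 and 1053 in UtyGT. WT 11, the library with the most Pfkfb3, was thus also the highest for the leukocyte, fibroblast and endothelial sums, though 0 of the 8 fibroblast and 0 of the 8 endothelial markers passed the test between numbers. The part of RNA from these cells in its level was not tested.

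Between groups, Pfkfb3 was lower in UtyGT than in WT in 3 of 3 libraries of equal number, with log2 ratios of -1.17, -0.53 and -0.32 for numbers 11, 15 and 31. The fitted log2 fold change was -0.67 (SE 0.76), with a 95% interval from -2.47 to 1.13, and the groups overlapped. With the number as a block, its unadjusted p was 0.012 and its adjusted p was 1. The leukocyte sum was also lower in UtyGT in numbers 11 and 15, at 9635 against 24063 and 809 against 1886, and alike in number 31, at 18184 against 18100. Leaving out 1 library or changing the scaling gave log2 fold changes between -1.39 and -0.02.

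Pfkfb3 lies on the minus strand of chromosome 2 (GRCm38, chr2:11471433-11554077), and RefSeq gives it start sites 51839 bases apart. Because Pfkfb3 is known as a hypoxia target, the 250 bases before an outer and an inner start (GRCm38.p6, chr2:11553930-11554179 and chr2:11502091-11502340) are shown 5′ to 3′ on the gene's strand. Capitals mark ACGTG, the core letters of the hypoxia response element, in the first, and CACGTG, an E-box that contains those letters, in the second.
Pfkfb3 outer promoter: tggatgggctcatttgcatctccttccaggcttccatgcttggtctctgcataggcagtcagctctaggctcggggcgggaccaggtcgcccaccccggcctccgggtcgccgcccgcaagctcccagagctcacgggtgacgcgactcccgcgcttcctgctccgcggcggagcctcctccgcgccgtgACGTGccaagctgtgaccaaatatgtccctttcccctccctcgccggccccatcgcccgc
Pfkfb3 inner promoter: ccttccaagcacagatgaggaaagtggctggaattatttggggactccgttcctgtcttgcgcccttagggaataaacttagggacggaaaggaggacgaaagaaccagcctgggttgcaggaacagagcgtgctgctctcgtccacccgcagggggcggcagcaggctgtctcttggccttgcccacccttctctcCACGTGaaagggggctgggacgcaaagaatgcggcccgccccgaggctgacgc
The matches lie 60 to 56 and 53 to 48 bases before the start. On either strand, ACGTG was in 16.6% of all RefSeq promoters of this length and in 19 of 51 promoters of the 35 genes. CACGTG, every match of which is also a match of ACGTG, was in 6.02% of all promoters and in 6 of those 51. The genes with ACGTG were Aldoa, Hk2, Ldha, Pdhb, Pdk2, Pdpr, Pfkfb2, Pfkfb3, Pfkm, Pgam1, Pgk1, Pkm, Pygb, Pygm and Slc2a1. These counts describe letters in a window, and no binding was measured here.

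**Figure D3:**
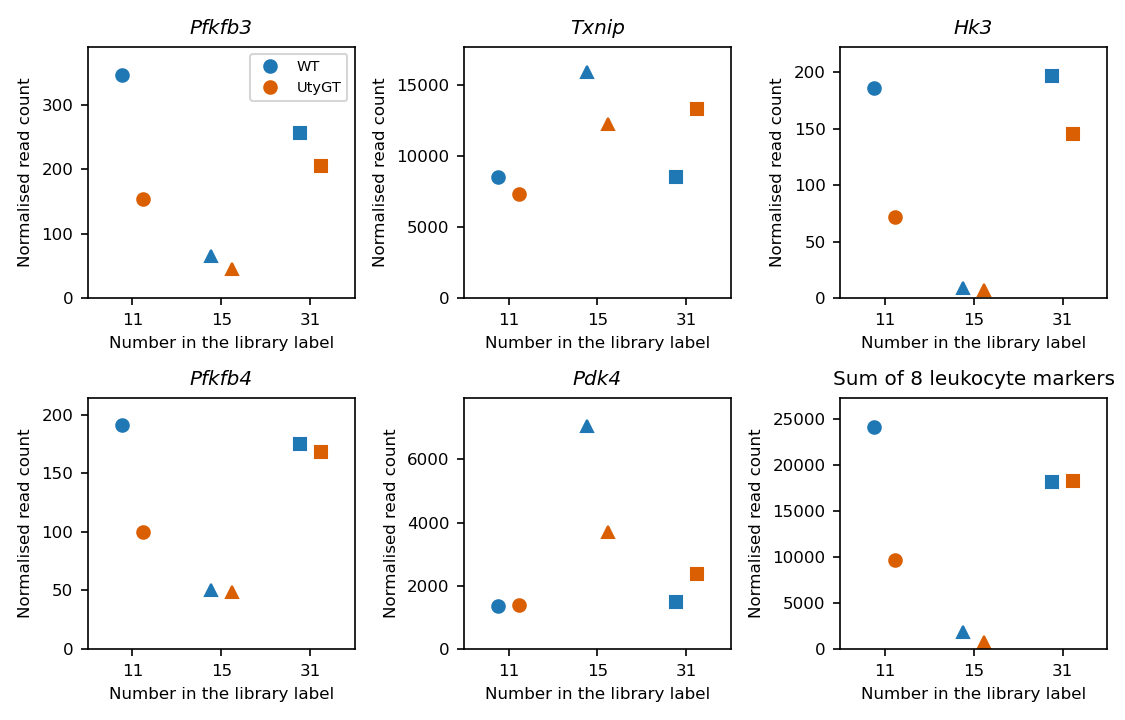
Normalised read count (y axis, from 0) by library number (x axis) for Pfkfb3, Txnip, Hk3, Pfkfb4 and Pdk4, and for the sum of 8 leukocyte markers, with 1 point per library, blue for WT and orange for UtyGT. Pfkfb3, Hk3, Pfkfb4 and the marker sum are lowest in both number 15 libraries, and Pdk4 is highest in both.

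Lower glycolysis yields ATP and pyruvate. Pgam2, the muscle phosphoglycerate mutase, had 2381, 2634 and 1954 in WT and 2452, 2169 and 2373 in UtyGT. Pgam1, the isoform of most other tissues, had 349, 336 and 372 in WT and 327, 406 and 332 in UtyGT. Both had log2 fold changes of 0.01 with SE of 0.12, and the libraries of the groups intermingled. Eno3, the muscle enolase, had 3944, 4140.3 and 3837 in WT and 3691, 3913 and 3755 in UtyGT, lower in UtyGT in 3 of 3 libraries of equal number, though the groups overlapped. The difference was small, at -0.07 (SE 0.07) on the log2 scale with an unadjusted p of 0.34. Eno1, the enolase of most tissues, had 1721, 1433 and 1673 in WT and 1615, 1845 and 1615 in UtyGT, with a log2 fold change of 0.07 (SE 0.10).

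The other enzymes of lower glycolysis were as even. Gapdh, the dehydrogenase often taken as a reference gene, ranged from 3637 to 4425 with a log2 fold change of 0.01 (SE 0.09). Pgk1, the first kinase that yields ATP, ranged from 415 to 521, and its log2 fold change was -0.01 (SE 0.12). Pkm, pyruvate kinase, ranged from 4500.2 to 5714, and its log2 fold change was -0.04 (SE 0.10). Gapdh, Pgk1, Pgam1, Eno1, Ldha and Pkm have processed pseudogenes of near-identical sequence in the mouse genome, so their reads may have been split or set aside in the counting.

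The lactate dehydrogenase genes showed the heart pattern in nuclear RNA. Ldhb, whose H subunit favours lactate use, had 5911, 7339.7 and 5708 in WT and 6281, 6359.6 and 6653 in UtyGT and the highest level per kilobase of exon of the 35 genes, 4061. Ldha, whose M subunit favours lactate formation, had 1419, 1634 and 1251 in WT and 1416, 1524 and 1534 in UtyGT and 442 per kilobase. WT 15 was the highest library for both genes and WT 31 the lowest, and log2 fold changes were 0.03 (SE 0.11) and 0.06 (SE 0.11).

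In the pyruvate dehydrogenase system, Pdha1 and Pdhb encode the decarboxylase subunits and Dlat the acetyltransferase core. Pdha1 ranged from 2452 to 3437 normalised read counts over the 6 libraries, Pdhb from 1977 to 2291 and Dlat from 2345 to 2706, with log2 fold changes of 0.06 (SE 0.13), 0.06 (SE 0.08) and 0.01 (SE 0.08). Pdhb was higher in UtyGT in 3 of 3 libraries of equal number, by at most 0.13 on the log2 scale.

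The kinases and phosphatases of the complex set its activity. Pdk2, a kinase found in most tissues, had 2105, 2539.6 and 1911 in WT and 2316, 2260.2 and 2352 in UtyGT. Pdk1, a kinase induced in hypoxia, had 859, 1135 and 736 in WT and 990.0, 929 and 965 in UtyGT. For both kinases the 3 UtyGT libraries lay inside the range of WT, with log2 fold changes of 0.09 (SE 0.11) and 0.10 (SE 0.16). Pdp1, the calcium-activated phosphatase of muscle, had 561, 625 and 347 in WT and 522, 532 and 568 in UtyGT, with WT 31 well below the other 5 libraries. Its log2 fold change was 0.12 (SE 0.21), with a 95% interval from -0.38 to 0.63. Pdpr, the regulatory subunit of that phosphatase, ranged from 1215 to 1438, with a log2 fold change of 0.03 (SE 0.09).

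Glycogen is built by glycogen synthase and the branching enzyme and broken down by phosphorylase, which phosphorylase kinase activates. Gys1, the muscle synthase, ranged from 1250.0 to 1673, with a log2 fold change of 0.04 (SE 0.11). Gbe1, the branching enzyme, had 537, 617 and 727 in WT and 550.2, 557 and 559 in UtyGT. The 3 UtyGT libraries of Gbe1 lay within 10 counts of each other, between WT 11 and the other WT libraries, and the log2 fold change was -0.16 (SE 0.12) with an unadjusted p of 0.22. Without WT 31 it was -0.05. Pygm, the muscle phosphorylase, had 6525, 6649 and 7144 in WT and 6750.1, 7327 and 6645 in UtyGT, and Pygb, the brain type, had 5638, 6928 and 5809 in WT and 6019, 6712 and 6109.8 in UtyGT. Phka1, the muscle regulatory subunit of phosphorylase kinase, had 1370.0, 1614 and 1704 in WT and 1319, 1647 and 1467 in UtyGT. Log2 fold changes were 0.03 (SE 0.08), 0.04 (SE 0.10) and -0.08 (SE 0.12) for these 3 genes, and the groups overlapped for each.

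Of the genes that varied most between numbers after Pfkfb3 and Txnip, Phka1, Pfkm, Pygb and Pdp1 had F test adjusted p between 0.83 and 1. For Phka1 the number 15 log2 difference was 0.28 (SE 0.13) against number 11 and 0.04 (SE 0.13) against number 31. For Pfkm it was 0.27 (SE 0.13) against number 11 and 0.21 (SE 0.13) against number 31, and for Pygb it was 0.23 (SE 0.13) against number 11 and 0.19 (SE 0.13) against number 31. For Pdp1 it was 0.09 (SE 0.23) against number 11 and 0.38 (SE 0.23) against number 31. These values are small beside the change of Pfkfb3.

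Isoforms of the same enzyme were set against each other within each library, a ratio that does not depend on library scaling. Levels were taken per kilobase of exon, as the mean over 6 libraries. The gene named first led in each of the 10 pairs and in all 6 libraries, by 14.6-fold for Slc2a4 over Slc2a1, 6.22-fold for Hk2 over Hk1, 9.69-fold for Pfkm over Pfkl and 16.4-fold for Pfkm over Pfkp. It led by 15.5-fold for Pgam2 over Pgam1, 7.27-fold for Eno3 over Eno1 and 9.19-fold for Ldhb over Ldha. Reads of Pgam1, Eno1 and Ldha may have been lost to processed pseudogenes, as said above, in which case these folds are overstated. The ratio was 5.91 for Pdk2 over Pdk1 and 2.42 for Pfkfb2 over Pfkfb1, and it was smallest, 1.65, for Pygm over Pygb, the brain type of phosphorylase. Pfkfb3 was the least abundant of the 35 genes, at 23.6 per kilobase.

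These ratios were also compared between UtyGT and WT. For Hk2 over Hk1, the log2 ratio of normalised read counts was 2.07 ± 0.35 in WT and 2.20 ± 0.14 in UtyGT (mean ± SD, n = 3). For Pfkm over Pfkp it was 1.95 ± 0.30 and 2.11 ± 0.05, the largest difference of the 10 pairs at 0.16. For Slc2a4 over Slc2a1 it was 3.83 ± 0.07 and 3.88 ± 0.05, and for Pygm over Pygb it was 0.15 ± 0.19 and 0.14 ± 0.02. The exact two-sided permutation p lay between 0.40 and 1 over the 10 pairs, with an adjusted p of 1 for each. With 3 against 3 libraries the smallest p possible is 0.10, so this test could not pass 0.05 whatever the ratios were. The groups overlapped for all 10 pairs.

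**Figure D4:**
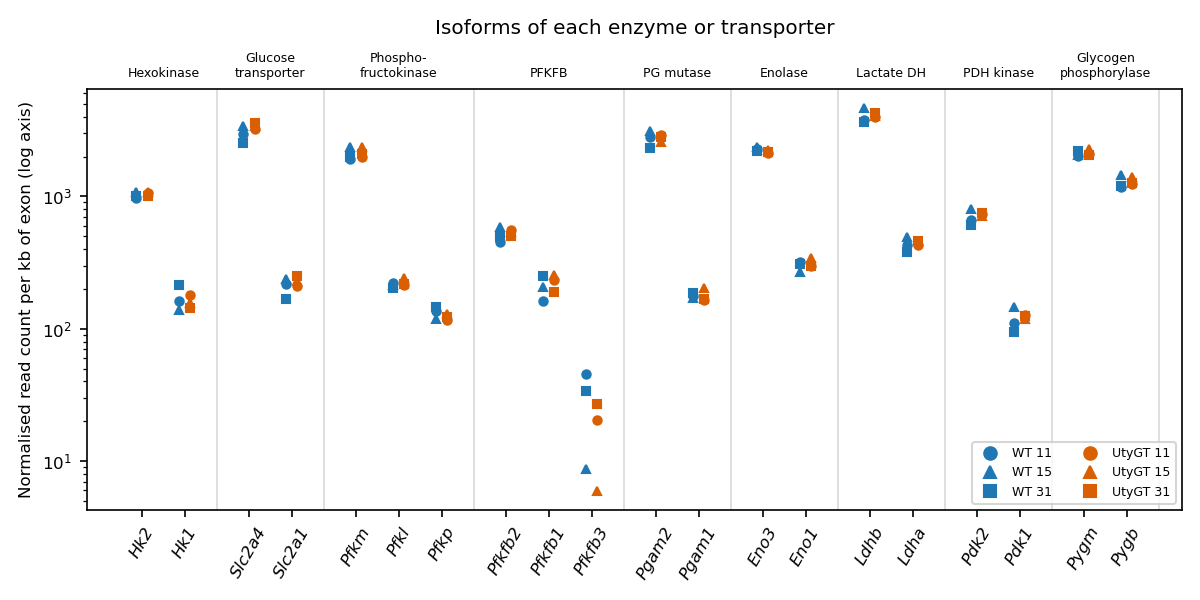
Normalised read count per kilobase of exon (y axis, log scale) for the isoforms of each transporter or enzyme (x axis), with 1 point per library, blue for WT, orange for UtyGT and marker shape for the number. The left gene of each family lies above its partners in all 6 libraries, by 14.6-fold for Slc2a4 over Slc2a1 and by 1.65-fold for Pygm over Pygb on average.

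The same question was asked of 69 further genes of glucose metabolism, of which 60 were tested. With UtyGT against WT, limma called 0 of the 60, and edgeR and DESeq2 also called 0. The unadjusted p was under 0.05 for 0 of the 60 with limma, 1 with edgeR and 0 with DESeq2. Of all 16202 genes tested, 195, 195 and 114 were under 0.05 with these tools. The groups did not overlap for 2 of the 60, a share below the 5.42% of all genes tested, both higher in UtyGT, namely Slc2a8 and Stbd1, a glycogen-binding protein named here after its values were seen. With the number as a block, limma also called 0 of the 60. The unadjusted limma p with that block was under 0.05 for 3 of the 60, against 399 of all 16202 genes tested. The limma p with the block was 0.018 for Slc2a3, 0.028 for Tbc1d4, a Rab regulator of GLUT4 traffic, and 0.046 for Hk3, each with a limma adjusted p of 1. The log2 ratios within numbers 11, 15 and 31 were -1.20, -1.13 and -1.58 for Slc2a3, 0.39, 0.14 and 0.33 for Tbc1d4 and -1.37, -0.26 and -0.43 for Hk3. Tbc1d4 is named after its values were seen. In the fit without the block, the smallest p belonged to Pdp2, a second pyruvate dehydrogenase phosphatase, which had 765, 866 and 665 in WT and 825, 999.5 and 945 in UtyGT, a log2 fold change of 0.27 (SE 0.12) and an unadjusted p of 0.064. Slc2a3, which encodes GLUT3, the transporter of neurons and leukocytes, had 20.6, 7.37 and 27 in WT and 8.42, 2.82 and 8.36 in UtyGT, with a log2 fold change of -1.30 (SE 0.62). Its counts were low, and it was also lowest in the number 15 library of each group. Slc2a8, which encodes the intracellular transporter GLUT8, had 323, 327 and 281 in WT and 332, 399 and 361 in UtyGT, with all 3 UtyGT libraries above WT and a log2 fold change of 0.23 (SE 0.12).

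Between numbers, 3 of the 60 genes passed (5%, against 4.79% of all genes tested). Hk3, a hexokinase of myeloid cells, had 187, 9.21 and 197 in WT and 71.5, 7.52 and 145 in UtyGT, and its log2 difference for number 15 was -3.64 (SE 0.36) against number 11 and -4.19 (SE 0.36) against number 31 (adjusted p = 0.00072). Pfkfb4, a PFKFB isoform best known from testis and tumours, had 191, 50.7 and 175 in WT and 99.9, 48.8 and 168 in UtyGT, with log2 differences of -1.46 (SE 0.29) against number 11 and -1.77 (SE 0.29) against number 31 (adjusted p = 0.015). Without WT 15 or without UtyGT 15, Pfkfb4 no longer passed (adjusted p of 0.38 and 0.099), with log2 differences of -1.24 and -1.55 in the first case and -1.68 and -1.99 in the second. Per 1000 counts of the leukocyte sum, Hk3 held between 4.89 and 10.9 in all 6 libraries, while Pfkfb4 had 26.9 and 60.4 in the number 15 libraries and between 7.95 and 10.4 in the others. Hk3 thus kept near the leukocyte sum over its whole range, and Pfkfb3 and Pfkfb4 did so in numbers 11 and 31 only.

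Pdk4, the kinase that shuts pyruvate dehydrogenase in fasting, went the other way. It had 1371, 7063 and 1488 in WT and 1406, 3686 and 2365 in UtyGT, with log2 differences for number 15 of 1.88 (SE 0.30) against number 11 and 1.44 (SE 0.30) against number 31 (adjusted p = 0.015). Without WT 15, the log2 differences were 1.23 and 0.80 and the adjusted p was 0.058. With no filter on low counts the differences were 1.88 and 1.44 as before, and the adjusted p was 0.063. Pdk4 was thus high in the libraries where the leukocyte markers were low, while Txnip was high in those and also in UtyGT 31, where the markers were not low. The part of cell makeup or of anything else that goes with the number was not tested.

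Single WT libraries lay at the ends of the range for many of the 35 genes. WT 15 held the highest value of 17 genes (48.6%), where it did so for 21.6% of all genes tested, and WT 31 held the lowest value of 14 genes (40%), against 21.2% of all genes tested. WT 11 held the lowest value of 12 genes (34.3%), against 16.6% of all genes tested. The genes lowest in WT 31 were Slc2a1, Slc2a4, Pfkl, Aldoa, Tpi1, Gapdh, Pgk1, Pgam2, Ldha, Ldhb, Pdha1, Pdk1, Pdk2 and Pdp1. UtyGT 31 held the lowest value of 0 of the 35 genes, against 15.9% of all genes tested. The highest library was under 1.5-fold of the lowest for 29 of the 35 genes, against 8489 of the 16202 genes tested and 5573 of the 6642 whose mean was 300 or more, a share close to that of the 35 genes.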

How the data were processed

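Nuclear RNA was sequenced from 3 WT and 3 UtyGT libraries made with a stranded low-input total RNA kit (SMARTer Pico), which does not select polyadenylated RNA. The authors used CASAVA 1.4, STAR 2.5.1b on GRCm38, featureCounts 1.6.0 and DESeq2 1.22.2, and the strand setting is not given in the sources used here. The deposited signal is the gene's reads over 1 size factor per library (normalised read counts), and 100% of them gave whole reads within 0.0001. Deposited fold changes, p-values and other columns of the authors' own comparison were not used. The second deposited table holds 4 of these libraries as a signal normalised apart.

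limma 3.58.1 (R 4.3.3) was run on log2(normalised count + 1) for 16202 genes (mean over libraries at least 10), two-sided, with Benjamini-Hochberg adjustment at 0.05. Fold changes of low genes are understated on this scale. Differences between numbers were tested with an F test with group as a covariate. edgeR 4.0.16 and DESeq2 1.42.0 were run on the recovered reads. The limma fits for the group and for the numbers were tested on simulated counts with known fold changes. The other steps were not tested in this way. The simulated counts had the same relative spread for all genes and, for the group, no difference between numbers. They therefore do not show the power of the fits in the real libraries. Exon lengths come from GENCODE on GRCm38 and promoters from RefSeq on GRCm38.p6.

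The pairing of equal numbers was checked by the correlation of deviations from group means across genes, 0.25 for number 11, 0.80 for number 15 and 0.41 for number 31, all above 0.1, so the numbers were taken as pairs. Crossing 11 and 31 gave 0.73 (WT 11, UtyGT 31) and 0.41 (WT 31, UtyGT 11), on average above the pairing by number. These correlations therefore cannot settle which libraries of 11 and 31 belong together. Ratios within equal numbers and the block p-values rest on the pairing by label. Libraries of a group differed by a chi-square per degree of freedom of at least 16.9, far beyond sampling noise. The genes, lists and tests were chosen with earlier results of these data known. Genes given with all library values were the 6 with the smallest p in each comparison, Txnip, the transporters and the isoform pairs. Of the 69 further genes, the 3 with the smallest p in each comparison were named.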

Additional observations from a re-analysis of the deposited data

How the results depend on the processing

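In 18 alternatives to the comparison of UtyGT with WT, 0 of the 35 genes passed in any, and of their 630 fold changes 59 changed sign, none of which was a called value. Over all genes, limma called 1 in UtyGT against WT, DESeq2 called 2, a replicate block gave 2 and the block with DESeq2 gave 4, and leaving out 1 library gave 1 to 2. The replicate block changed no call among the 35 genes or the 69 further genes, where it called 0. Between numbers, 776 genes passed, 478 with a mean of at least 50, and 369 to 1244 when 1 library was left out, with 369 without WT 15, 462 without UtyGT 15 and 1244 without UtyGT 11. Of the 35 genes, 1 passed between numbers and 2 with DESeq2, with 0 to 2 when 1 library was left out. Of the further genes 3 passed, with 1 to 4 when 1 library was left out and 1 without WT 15. For Txnip, the log2 difference of number 15 minus 31 ran from -0.083 without WT 31 to 0.86 without UtyGT 31. The causes of these changes were not tested. The isoform ratios changed sign in 11 of 80 alternatives and moved beyond 1 SD in 0. With 3 libraries per group, small changes may go undetected. Large ones may too after adjustment over all genes, as for Ddx3y (log2 fold change -2.82, limma adjusted p = 0.9996). Intervals cover the spread between these libraries only.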

Other observations

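In WT 31, short genes of the pathway lay low and long ones high. The 14 genes lowest in that library spanned between 2094 and 30635 bases from first to last annotated base, with a median of 14625, and the 6 genes highest in it, Hk1, Pfkp, Dlat, Gys1, Gbe1 and Phka1, spanned between 21776 and 255768, with a median of 90032. Across the 35 genes, which are not independent replicates, the log2 deviation of WT 31 from the mean of the other WT libraries had a Spearman correlation of 0.61 with gene span, as a description. The other 5 libraries gave between -0.35 and 0.23, and WT 31 is described because its value was the largest. Deviations within a group cancel out, so the values of WT 11 and WT 15, both -0.35, are not independent of that of WT 31. Over 16184 genes with a span, the same value for WT 31 was 0.04, so that the pattern was not shared by genes at large. With exon length in place of span, the value for WT 31 was 0.50. The low values of Slc2a4, Slc2a1 and Pdp1 in WT 31 enter their fold changes of UtyGT over WT. The part of gene or exon length in this pattern was not tested.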
